A study of Mus musculus with 2 samples.

Results

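The epidermal growth factor (EGF) receptor family and its ligands were described in skin cells of newborn mice, as 10 of the 32285 genes counted. They were chosen by name, with earlier results of these data known: the receptors Egfr, Erbb2 and Erbb3, the ligands Areg, Ereg, Hbegf, Tgfa, Btc and Epgn, and the receptor inhibitor Errfi1. All 10 had UMIs (unique molecular identifiers, each standing for 1 captured transcript) in both libraries. Dorsal skin was taken at postnatal day 3, epidermal and dermal suspensions were mixed at 30 to 70, and 1 droplet 3′-end library was made per group. The control library is labelled Wildtype and the other miR-200b induced; both carry the treatment label Dox. The strain, the construct and the cells that drive the microRNA, and the number of animals in each library are not given in the sources used here. With 1 library per group there is no test between groups, and every interval below covers counting error only.

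EGF family ligands are made as membrane proteins, are cut free by surface proteases and bind receptor tyrosine kinases on the same or neighbouring cells. Egfr (ErbB1) binds all of the ligands studied here, Erbb2 binds none and acts as a dimer partner, and Erbb3 binds neuregulins and signals through its partners because its own kinase is weak. In skin the pathway is known for keratinocyte proliferation, hair follicle development and wound closure, and Errfi1 (Mig6) is induced by the active receptor and blocks its kinase.

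The microRNA that was induced belongs to a family with 2 seeds, the stretch of bases 2 to 8 that pairs with target RNAs. The mature sequences of miR-200b and miR-200a (RefSeq, GRCm38.p6) are given with the seed in capitals, because they differ at 1 base of it and so fix which letters can be searched for in the genes of the pathway.
mmu-miR-200b-3p: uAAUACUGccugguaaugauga
mmu-miR-200a-3p: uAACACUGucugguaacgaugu
A 7-base match to the miR-200b seed (CAGTATT, on the transcript strand) stood in the annotated 3′ UTR of 3 of the 10 genes, Egfr, Errfi1 and Btc, against 13.9% of 20903 protein-coding genes with a 3′ UTR (GENCODE vM21, GRCm38). Egfr alone of the 10 had an 8-base match (CAGTATTA), which 3.32% of all genes have. Its 3′ UTR is long, 6303 bases against a median of 1090 over all these genes. Of the 653 genes with a 3′ UTR of like length, 42.1% have at least 1 7-base match. The share of them with an 8-base match is not given. The Egfr matches lie 59 bases apart in exon 28 of 28 on the plus strand, at chr11:16912629-16912635 (the 8-base match) and chr11:16912688-16912694. The sites are shown for Egfr and Errfi1, the receptor and its inhibitor with 2 matches each, with the match in capitals.
Egfr site at 774: aaacaaaaaaccCAGTATTaagtattatca
Egfr site at 833: cattcaaaccatCAGTATTgtgaccaaaag
Errfi1 site at 920: ctggttcctattCAGTATTtcctggggatt
Errfi1 site at 1291: gcactgtgtgtaCAGTATTggacaaaggat
Positions are counted from the first base of the 3′ UTR. The Errfi1 matches are in exon 4 of 4 at chr4:150868422-150868428 and chr4:150868793-150868799, in a 3′ UTR of 1390 bases, and 14% of genes of like length have a match. Erbb2, Erbb3, Areg, Ereg, Hbegf, Tgfa and Epgn had none of the letters searched for miR-200b in the transcript used. A match is a description of the sequence and no evidence of binding.

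In the genome, 4 of the 6 ligand genes are neighbours on chromosome 5. Epgn, Ereg, Areg and Btc lie within 375.5 kb (chr5:91027464-91402994, GRCm38) with no other protein-coding gene between them, Btc on the minus strand and the other 3 on the plus strand. Egfr (chr11:16752203-16918158) and Erbb2 (chr11:98412470-98437716) share chromosome 11. Erbb3 is at chr10:128567523-128589652, Tgfa at chr6:86195223-86275719 and Errfi1 at chr4:150853919-150868892.

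The libraries held 100409201 UMIs (control) and 119705137 UMIs (induced), and 4816 and 4890 cells were kept. Epithelial cells numbered 3914 and 3799, with a median of 16131.5 and 22224 UMIs per cell. Cells were named from marker genes as basal-, spinous-, granular-, outer root sheath-, upper follicle- and sebaceous-like, and the shorter names below mean such cells. The libraries stood apart: of the 35 epithelial clusters 26 were made up to 95% or more by 1 library, against 1 of 10 other clusters, and different clusters hold most of the basal (control E1, E20, E27; induced E0, E2, E9, E22, E23), spinous (E11, E18; E4) and outer root sheath class (E6, E10, E15, E16, E19, E24, E26; E5, E7, E29). Epithelial clusters with at least 50 cells of each library were E21 and E25 (upper follicle) and the unnamed E31, led by the hair keratins Krt33a and Krt35. The leading genes of E21 included the companion layer markers Pinlyp and Krt75 beside the upper follicle markers Klk10 and Cst6. Gm13648, the annotated noncoding host transcript of the miR-200b gene, checked the labels: it had 172 UMIs (2.23 per 1000000 UMIs, CPM) in control and 51689 UMIs (530.3 CPM) in induced epithelial cells. Genes of tissue dissociation stress summed to 12204 CPM in control and 9406 CPM in induced epithelial cells, and G2/M genes to 1177 and 623.3 CPM. The part of cell state, depth and library in the differences below was not tested. The libraries shared 74 cell barcodes, 10 of them among cells that passed the filter in each.

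Across epithelial cells the receptors parted: Egfr was lower, Erbb3 higher and Erbb2 nearly level in the induced library. Egfr was at 37.8 CPM in control and 16.7 CPM in induced epithelial cells, a 2.27-fold lower level (log2 ratio of induced to control −1.18, 95% interval −1.27 to −1.09). Erbb3 was at 37.0 and 66.5 CPM (log2 ratio 0.84, 0.78 to 0.91). Erbb2 was at 34.8 and 36.3 CPM (log2 ratio 0.06, −0.01 to 0.13). Of the 10 genes, 5 had a mean level of at least 20 CPM, and at 1.5-fold with 5 CPM added 1 of them was called higher (Erbb3; 6.39% of the 5857 genes at that level were) and 1 lower (Egfr; 13.2% were). At 2-fold neither was called (2.24% of genes were higher and 4.25% lower). The median gene itself stood at a log2 ratio of −0.10, and both calls held relative to it.

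Egfr, the receptor of all 6 ligands, was lower in the induced library in each of the 3 named classes made of separate clusters. In basal cells it was at 37.5 CPM in control (556 UMIs in 780 cells) and 12.3 CPM in induced (455 UMIs in 1514 cells), a log2 ratio of −1.61 (−1.79 to −1.43). The 3 control basal clusters of at least 50 cells read 31.6, 37.9 and 40.3 CPM and the 5 induced ones 7.16, 9.90, 10.4, 14.2 and 14.7 CPM. The ranges do not overlap: every induced basal cluster was below every control one. Clusters are parts of a library and not replicates. The share of all genes with separate ranges is not given, so the separation shows nothing particular to these genes. Among the 10 genes the basal ranges of Erbb3, Ereg and Btc were also separate, each higher in the induced library. Those of Ereg and Btc were near the floor. Control clusters reached at most 0 and 0.377 CPM, and induced ones at most 0.702 and 1.97 CPM. In the basal class 1 of 5 genes measured at 20 CPM was called lower, against 10.3% of 5652 genes, and 1 higher, against 6.39%. Outer root sheath cells, the outermost layer of the follicle, had the highest control level, 50.1 CPM against 24.5 CPM in the induced library (log2 ratio −1.03, −1.20 to −0.86). Here the ranges met: the 7 control clusters ran from 34.9 to 91.6 CPM, and of the 3 induced ones E7 was at 35.1 CPM, E5 at 23.5 CPM and E29 at 6.95 CPM. The control maximum was in E15, which had a high stress sum (19202 CPM). Spinous cells, the first suprabasal layer, read 25.1 and 15.4 CPM (log2 ratio −0.71, −0.96 to −0.46), short of the 1.5-fold call once 5 CPM were added. Unnamed epithelial cells, also of mostly separate clusters, read 37.4 and 15.4 CPM (log2 ratio −1.27, −1.49 to −1.06).

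In the clusters that held cells of both libraries Egfr did not differ beyond counting error. Over E21, E25 and E31 together (236 control and 222 induced cells) it was at 37.2 and 36.4 CPM, a log2 ratio of −0.03 (−0.31 to 0.24). None of these clusters is of the basal, spinous or outer root sheath class, so this ratio cannot check those of these classes. By cluster the levels were 32.2 and 25.1 CPM in E21, 44.6 and 58.7 CPM in E25, and 42.5 and 51.5 CPM in E31. The upper follicle class (E21 and E25) had 35.4 and 32.9 CPM (log2 ratio −0.11, −0.43 to 0.22). Of 7 genes at 20 CPM in these clusters 2 were called higher, Areg and Hbegf, against 6.68% of 5956 genes, and none lower, against 11.5%. Restricting the count to them ends the calls of Egfr and Erbb3, while leaving out the 6 clusters with a high stress sum gave a log2 ratio of −1.10.

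**Figure D1:**
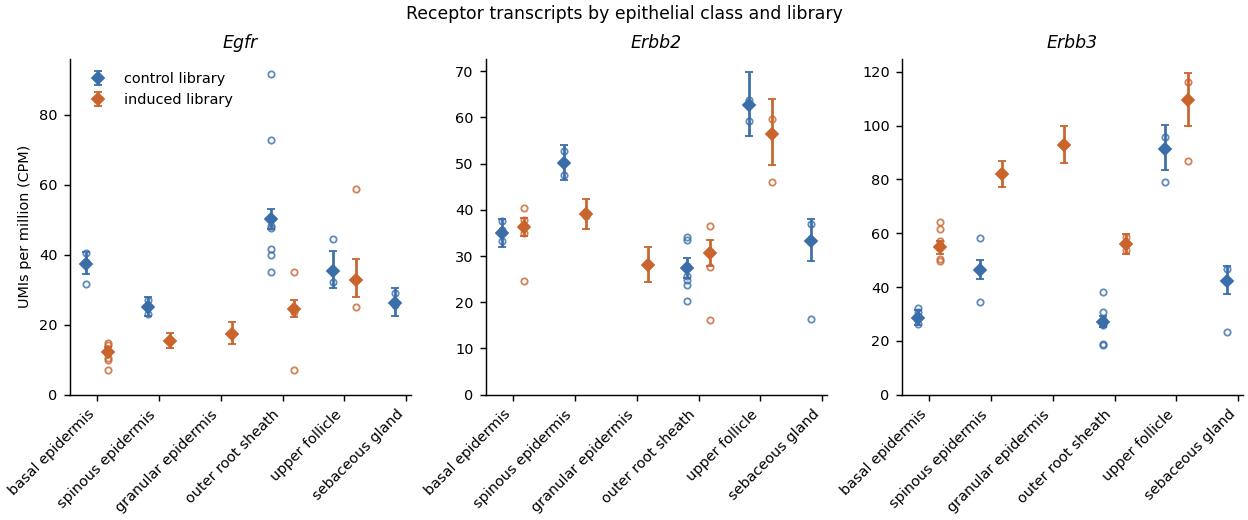
Level of Egfr, Erbb2 and Erbb3 (CPM, linear axis from 0) by epithelial class; blue is the control and orange the induced library. Diamonds are class sums with exact Poisson 95% intervals and open circles single clusters of at least 50 cells; classes under 50 cells in a library are not drawn. All 5 induced basal clusters lie below the 3 control ones for Egfr (7.16 to 14.7 against 31.6 to 40.3 CPM) and above them for Erbb3. Clusters of a library are not replicates, and the share of all genes with separate ranges is not given.

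Erbb3, the neuregulin receptor, was higher in the induced library in basal, spinous and outer root sheath cells by a similar ratio. Basal cells had 28.6 CPM in control and 54.8 CPM in the induced library (log2 ratio 0.94, 0.78 to 1.09). The induced basal clusters (49.9 to 64.1 CPM) were all above the control ones (26.3 to 32.4 CPM). Outer root sheath cells had 27.1 and 56.0 CPM (log2 ratio 1.04, 0.90 to 1.19), and again no induced cluster (53.6 to 58.6 CPM) reached down to a control one (18.6 to 38.0 CPM). Here too the clusters are not replicates, and the share of all genes with separate ranges is not given. The Btc ranges were also separate in this class, at low levels (0 to 1.40 CPM in control and 2.17 to 3.24 CPM in induced clusters). Spinous cells had 46.4 and 81.9 CPM (log2 ratio 0.82, 0.68 to 0.96), and unnamed epithelial cells 29.2 and 64.4 CPM (1.14, 0.97 to 1.31). Erbb3 was the 1 gene called higher in the spinous class, where 6 of the 10 were at 20 CPM (7.65% of 4851 genes were called higher and 13% lower), and in the outer root sheath, where 5 were (7.42% of 6121 higher and 11.5% lower).

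The upper follicle had the highest Erbb3 level of the 4 classes compared in each library, 91.5 CPM in control and 109.5 CPM in the induced library, and the smallest ratio (log2 0.26, 0.07 to 0.45). In the clusters of both libraries together Erbb3 was at 74.6 and 99.7 CPM (log2 ratio 0.42, 0.24 to 0.59), short of the 1.5-fold call. The difference there was largest in E31 (27.6 and 57.3 CPM) and within counting error in E25 (79.1 and 87.0 CPM). Outside the epithelium Erbb3 was high in melanocyte-like cells, which are neural crest derived, and equal between libraries at 133.3 CPM (79 cells) and 132.2 CPM (238 cells). Their log2 ratio was −0.01 (−0.32 to 0.30).

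Erbb2, the receptor without a ligand, was nearly level between the libraries over all epithelial cells but not in every class. It was highest in the upper follicle (62.7 CPM in control, 56.5 CPM in induced) and lowest of the 4 classes compared in the outer root sheath (27.3 and 30.6 CPM). Spinous cells had 50.2 CPM in control and 39.0 CPM in the induced library (log2 ratio −0.36, −0.52 to −0.20), and the ratio in basal cells was 0.06 (−0.09 to 0.21). Unnamed epithelial cells had 22.7 and 36.6 CPM (log2 ratio 0.69, 0.49 to 0.89). The control order of spinous above basal (log2 0.52, 0.36 to 0.69) was within counting error in the induced library (0.10, −0.04 to 0.25).

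Receptor transcripts were detected in few cells once each cell was thinned to 2000 UMIs to match depth. Egfr was then found in 7.74% of 3891 control epithelial cells (exact Clopper-Pearson interval 6.92 to 8.62%) and 3.25% of 3783 induced ones (2.71 to 3.87%). Erbb3 was found in 6.50% (5.75 to 7.32%) and 11.1% (10.1 to 12.1%). A UMI of any of the 3 receptors was found in 19.1% and 20.1% of cells, and these intervals overlap. Without thinning the Egfr shares were 45.7% and 30.5% and those of Erbb3 40.3% and 66.8%. In fibroblast-like cells, which carried few of these transcripts, the thinned shares were 0.537% and 0.797% for Egfr and 0.179% and 1.59% for Erbb3, at median depths of 9188 and 5938 UMIs before thinning. Of the 10 genes, Egfr, Erbb3 and Ereg had intervals in epithelial cells that did not overlap between the libraries. The share of all genes with such intervals is not given, so the count shows nothing particular to these genes. Granular cells, 131 in the induced and 10 in the control library, held 87.8% of induced epithelial Ereg UMIs.

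The ligands differed in level between epithelial layers. Of the 10 genes, 5 had the same highest class of the 4 compared in each library, the upper follicle: Erbb2, Erbb3, Areg, Ereg and Tgfa. The share of all genes with that pattern is not given. Granular cells are outside the 4 classes, and induced ones had more Ereg (133.1 CPM) than induced upper follicle cells (12.5 CPM). Of the same 4 classes Epgn was highest in basal cells of the control library, Hbegf and Btc in its spinous cells. In control sebaceous cells (217 cells; the induced library had 3) ligand levels were low: Ereg had 0 UMIs, which allows up to 0.467 CPM at 3 counts, Areg and Epgn had 1 UMI each, and Hbegf was at 6.38 CPM. Tgfa (2.49 CPM, 16 UMIs) and Btc (0.467 CPM, 3 UMIs) did not differ there from control outer root sheath cells beyond counting error (log2 ratios 0.15, −0.76 to 0.98, and 0.85, −1.78 to 3.08). The same sebaceous cells held Egfr at 26.3 CPM, Erbb2 at 33.2 CPM and Erbb3 at 42.3 CPM.

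**Figure D2:**
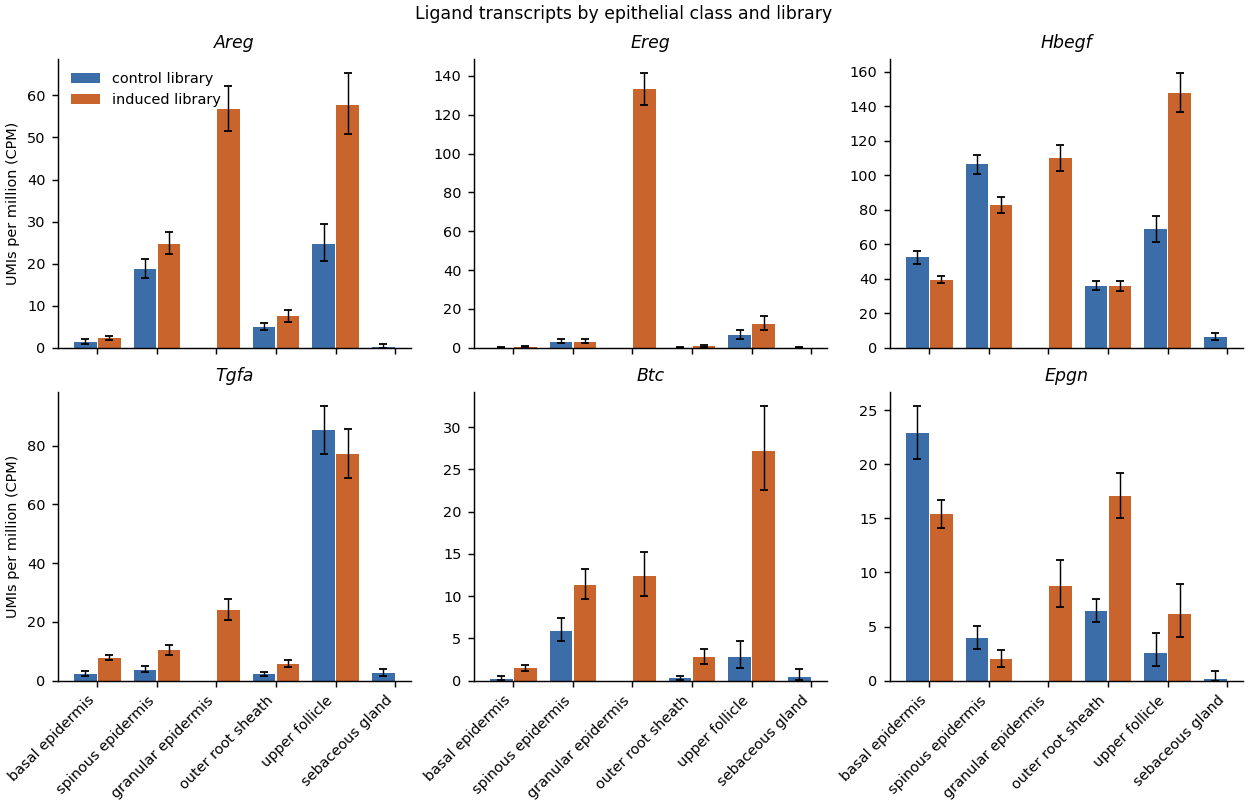
Level of the 6 ligand genes (CPM, linear axes from 0, scaled per gene) by epithelial class; blue bars are the control and orange bars the induced library, with exact Poisson 95% intervals. Classes with fewer than 50 cells in a library have no bar. Ereg stands almost alone in induced granular cells (133.1 CPM), Tgfa in the upper follicle of each library (85.2 and 77.1 CPM), and among the control classes drawn Epgn is highest in basal cells (22.8 CPM); unnamed cells (28.7 CPM) are not drawn.

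Hbegf, the heparin-binding ligand, was detected in every class compared. Spinous cells had 106.4 CPM in control and 82.5 CPM in the induced library (log2 ratio −0.37, −0.48 to −0.26) and basal cells 52.4 and 39.4 CPM (−0.41, −0.54 to −0.28), while outer root sheath cells were level at 36.0 and 35.7 CPM. Unnamed epithelial cells had 35.5 and 51.0 CPM (0.52, 0.36 to 0.69). Upper follicle cells also had more in the induced library, 68.6 CPM in control and 147.6 CPM in the induced library (log2 ratio 1.11, 0.92 to 1.30). The induced level was the higher one in each of its clusters, 58.5 and 97.1 CPM in E21 and 97.6 and 314.8 CPM in E25, and 16.9% of the induced UMIs came from 1 cell. Among basal clusters the highest induced level was in E9 (79.5 CPM), which had Gadd45b, Irf1 and Icam1 among its leading genes and a high stress sum (14540 CPM). The other 4 ran from 20.8 to 38.1 CPM and the 3 control ones from 22.4 to 67.7 CPM. Endothelial-like cells also carried Hbegf, at 109.0 CPM (63 control cells) and 71.7 CPM (67 induced cells).

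Areg, amphiregulin, was found mainly in suprabasal and upper follicle cells. In spinous cells it was at 18.7 CPM in control and 24.7 CPM in the induced library, but in control this was almost all in E18 (35.3 CPM), the spinous cluster led by Krt77, and not in E11 (2.30 CPM). Basal cells had 1.35 and 2.33 CPM, and unnamed epithelial cells 8.46 and 3.73 CPM. In the upper follicle Areg was at 24.7 and 57.8 CPM (log2 ratio 1.23, 0.91 to 1.55) and higher in the induced cells of both E21 (28.7 and 65.3 CPM) and E25 (13.1 and 33.2 CPM). Areg and Hbegf were the 2 genes called higher in the upper follicle of 7 at 20 CPM (6.49% of 5718 genes were called higher and 10.5% lower), and none was called lower. The Areg call was lost with library-centred clustering (log2 ratio 0.04 with 5 CPM added), while Hbegf was past 1.5-fold in every alternative run (0.80 to 2.11). Single cells weighed heavily, the top cell giving 29.6% in control and 44.3% in the induced library. A ligand UMI of any kind was found in 20.8% of 168 control and 32.9% of 167 induced upper follicle cells at 2000 UMIs (intervals 14.96 to 27.8% and 25.9 to 40.6%), and 2 or more ligands in 1.79% (0.37 to 5.13%) and 8.38% (4.66 to 13.7%). The intervals overlap in each case. In fibroblast-like cells the shares with any ligand were 1.07% and 3.19%.

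Ereg, epiregulin, was highest in cells of the granular layer, the last living layer of the epidermis. Its level in 131 induced granular cells was 133.1 CPM (125.1 to 141.6), and in induced basal cells 0.541 CPM. Those granular cells held 87.8% of all induced epithelial Ereg UMIs. Granular cells were 131 of 3799 in the induced library and 10 of 3914 in control, too few to compare, with 53 Ereg UMIs of which 77.4% were in 1 cell. Over all epithelial cells Ereg was at 1.73 CPM in control and 11.9 CPM in the induced library (log2 ratio 2.78, 2.52 to 3.05). Without granular cells the levels were 1.05 and 1.58 CPM (log2 ratio 0.59, 0.19 to 1.01). In the same induced granular cells Areg was at 56.7 CPM, Hbegf at 110.0 CPM and Erbb3 at 93.0 CPM, and Egfr at 17.4 CPM.

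Tgfa, transforming growth factor alpha, was concentrated in 1 of the upper follicle clusters. Cluster E21, which carries the companion layer gene Krt75 beside upper follicle markers, held it at 113.4 CPM in control and 91.8 CPM in the induced library (log2 ratio −0.30, −0.52 to −0.09). The upper follicle class held 58.4% of control epithelial Tgfa UMIs in 172 of 3914 cells, and 27.7% of induced ones in 170 of 3799 cells, where basal cells held 23.7% and granular cells 14.9%. Cluster E25 had 3.84 CPM in control and 28.4 CPM in the induced library. In the other 3 classes compared Tgfa was lower than in the upper follicle and higher in the induced library: 2.43 and 7.87 CPM in basal cells (log2 ratio 1.70, 1.20 to 2.24), 3.76 and 10.4 CPM in spinous cells, and 2.25 and 5.62 CPM in the outer root sheath. These 3 classes were under 20 CPM and outside the counts of called genes. Unnamed epithelial cells had 7.77 and 6.51 CPM (log2 ratio −0.26, −0.65 to 0.14), and induced granular cells 24.0 CPM.

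Btc, betacellulin, was low in nearly every class. Spinous cells had 5.93 CPM in control and 11.4 CPM in the induced library (log2 ratio 0.94, 0.55 to 1.34), basal cells 0.202 and 1.46 CPM. In the upper follicle it was at 2.77 and 27.2 CPM, almost wholly through E21 (1.33 and 33.1 CPM, 5 and 112 UMIs). That difference depended on how cells were clustered, since with library-centred clustering the upper follicle ratio was −0.53 on the log2 scale with 5 CPM added. Of the 339 control epithelial UMIs, 67.8% came from the 10 granular cells.

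Epgn, epigen, was highest of the 4 classes compared in basal cells of the control library and in the outer root sheath of the induced one. Its highest control level and largest difference were outside them, in the unnamed epithelial cells (789 control and 793 induced cells of mostly separate clusters), at 28.7 and 2.04 CPM (log2 ratio −3.82, −4.35 to −3.32). These held 40.2% of control epithelial Epgn UMIs. It was at 22.8 CPM in control and 15.4 CPM in induced basal cells (log2 ratio −0.57, −0.77 to −0.37), and at 3.90 and 1.97 CPM in spinous cells (−0.99, −1.70 to −0.30). In the outer root sheath it was at 6.43 and 17.0 CPM (log2 ratio 1.41, 1.11 to 1.70), but the induced level rested on E29 (65.6 CPM; 6.71 and 14.2 CPM in E5 and E7). E29 had a stress sum of 20434 CPM, and without the clusters of high stress sum the outer root sheath ratio was −0.14 with 5 CPM added. The other clusters of high stress sum were of unlike class and library. Epgn was at 45.2, 30.0 and 14.2 CPM in E17, E9 and E7, and at 2.10 and 0.873 CPM in E24 and E15. The part of stress was not tested. The highest control cluster was the unnamed E8 (48.8 CPM). Epgn averaged under 20 CPM in each of these classes and was outside the counts of called genes.

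**Figure D3:**
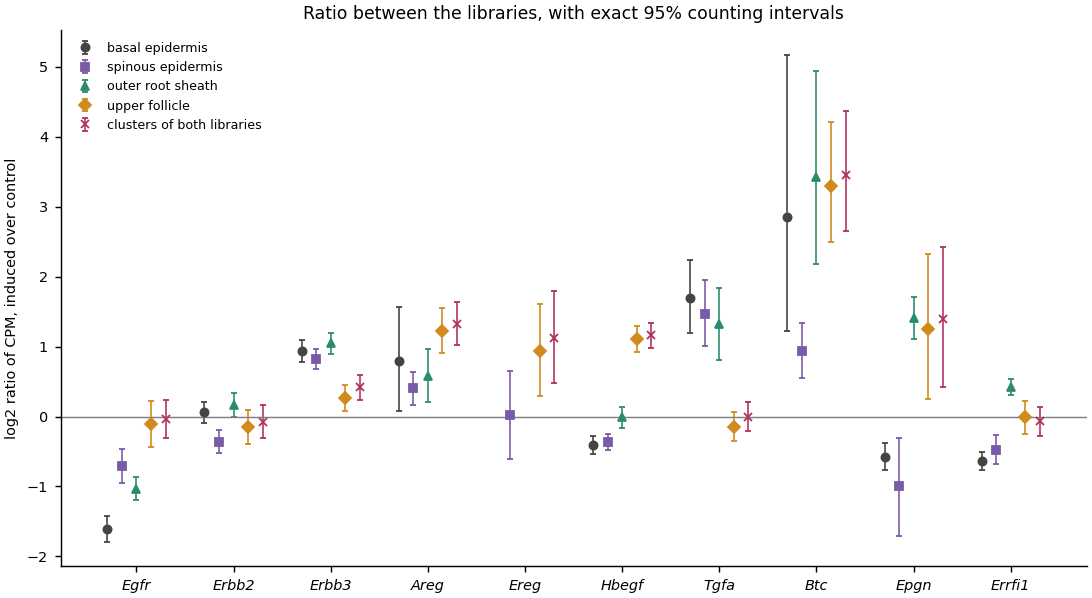
Log2 ratio of level (CPM, induced over control) for the 10 genes in 4 epithelial classes and in the 3 clusters that held cells of both libraries, with exact conditional 95% intervals that cover counting error only; the grey line is no difference. Ratios with a control of 0 UMIs or an interval wider than 4 log2 units are not drawn. Egfr lies between −1.61 and −0.71 in basal, spinous and outer root sheath cells and near 0 in the upper follicle and the shared clusters, while Erbb3 is above 0 in all 5 sets.

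Errfi1, the receptor's feedback inhibitor, was at 57.6 CPM in control and 43.8 CPM in induced epithelial cells (log2 ratio −0.39, −0.46 to −0.33), under the 1.5-fold call. Basal cells had 55.0 and 35.3 CPM (−0.64, −0.76 to −0.51), spinous cells 33.1 and 23.9 CPM, and upper follicle cells 64.0 and 63.5 CPM (−0.01, −0.25 to 0.22). Outer root sheath cells had 58.0 and 77.7 CPM (0.42, 0.31 to 0.54), where E29 alone was at 157.6 CPM. The outer root sheath difference hung on the choice of cells: with 5 CPM added the log2 ratio was 0.39, and between −0.03 and 0.05 under the stricter cell filter, with doublets kept, under both other clusterings and without clusters of high stress sum. Unnamed epithelial cells had the largest epithelial difference, 101.8 and 32.5 CPM (−1.65, −1.79 to −1.51), and held 29.9% of control epithelial Errfi1 UMIs. Their cluster E8 was the highest control one (174.9 CPM), led by Rcan1 and Trib1.

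Errfi1 differed most outside the epithelium. Fibroblast-like cells had 10.6 CPM in control (564 cells) and 86.0 CPM in the induced library (284 cells; log2 ratio 3.03, 2.58 to 3.49). Of these, 77 induced cells in N25 had 174.6 CPM. That cluster held only 7 control cells, and the adipocyte marker genes Lpl, Cfd and Fabp4 were among its leading genes beside Dcn and Col3a1. The same induced cells had Egfr at 28.6 CPM against 2.41 CPM in all control fibroblasts, a comparison of cells of unlike makeup. In the fibroblast clusters shared by both libraries the ratio was smaller: 10.1 and 30.2 CPM in N7, and 10.5 and 36.5 CPM in N10. Pericyte- or smooth muscle-like cells had 58.9 CPM (52 cells) and 578.8 CPM (46 cells; log2 ratio 3.30, 2.79 to 3.84), with 9.16% of the induced UMIs in the top cell. The stress sum was also higher there, from 3907 to 13031 CPM in fibroblasts and from 4870 to 18989 CPM in pericytes, and its part was not tested. Values of both are given for 2 more classes, and no relation between them was tested. Endothelial-like cells had stress sums of 8446 and 14994 CPM with Errfi1 at 39.5 and 44.5 CPM. In macrophage- or dendritic-like cells (29 and 26 cells) Errfi1 was at 73.9 and 175.7 CPM and the stress sum at 11880 and 8471.5 CPM. In melanocyte- and endothelial-like cells the interval of the Errfi1 log2 ratio spanned 0 (−0.43 to 1.95 and −0.50 to 0.84).

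**Figure D4:**
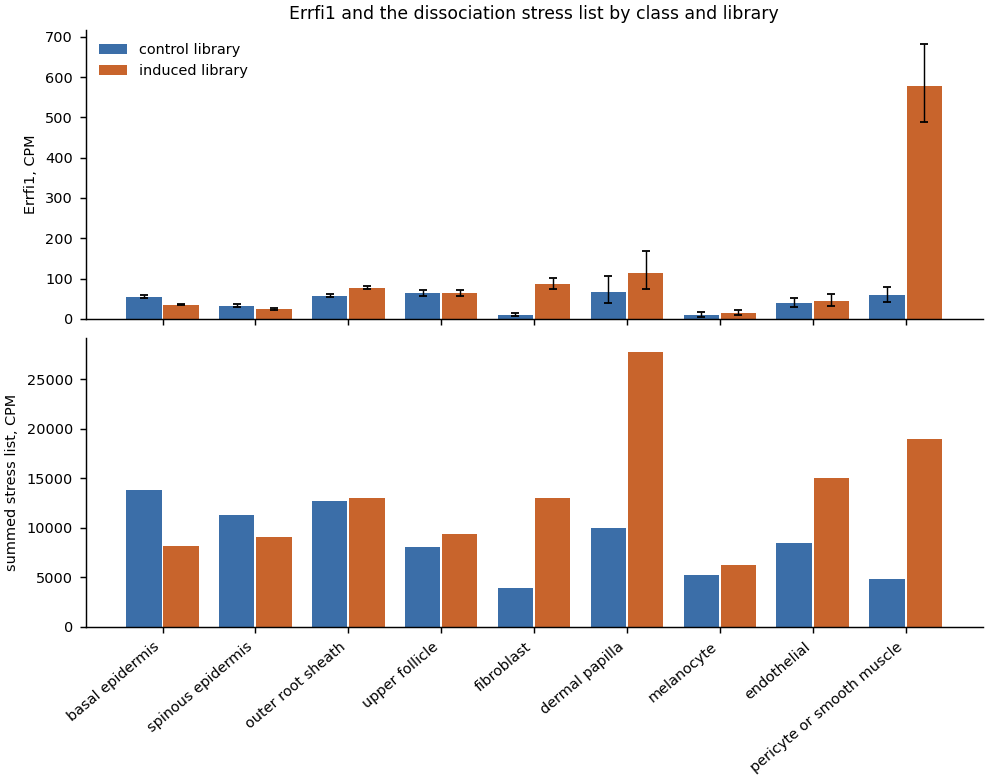
Errfi1 (upper panel) and the summed dissociation stress genes (lower panel), both in CPM on linear axes from 0, by class; blue bars are the control and orange bars the induced library, and error bars in the upper panel are exact Poisson 95% intervals. In pericytes Errfi1 reads 58.9 and 578.8 CPM while the stress sum reads 4870 and 18989 CPM; in basal cells each is lower in the induced library. In endothelial cells the stress sum reads 8446 and 14994 CPM while Errfi1 reads 39.5 and 44.5 CPM. The dermal papilla bars rest on 43 and 88 cells.

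Beyond the 10 genes, 58 others of the pathway were counted in lists by role, 37 of them at 20 CPM or more in epithelial cells. Of these, 2 were higher and 6 lower at 1.5-fold, beside the 6.39% and 13.2% of all genes given above, and their median log2 ratio was −0.20 against −0.10 for all genes. The remaining receptor and ligands (Erbb4, Egf and the neuregulins Nrg1 to Nrg4, ligands of Erbb3 or Erbb4) were all below that level. Of the ligand release genes 1 of 4 was lower and none higher: Timp3, an inhibitor of the sheddase Adam17, at 231.9 CPM in control and 127.0 CPM in the induced library. Of 18 relay genes from Grb2 to Stat3, 1 was lower, Pik3r1, a regulatory subunit of PI3 kinase (49.6 and 22.7 CPM), and none higher. Of 7 genes that attenuate receptors, 1 was lower, and none higher. That gene was Lrig1, a membrane protein that promotes EGF receptor turnover and marks upper follicle stem cells, at 79.7 CPM in control and 32.4 CPM in the induced library (log2 ratio −1.30, −1.36 to −1.24). It was lower in each class, most in spinous cells (40.8 and 6.25 CPM) and least in the upper follicle (90.9 and 51.3 CPM).

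Of 8 ERK feedback and response genes at 20 CPM, 2 were higher (Spry1 and the transcription factor Etv4) and 3 lower (Spred1, Phlda1 and Egr1). Of these, Spry1, an inhibitor of receptor tyrosine kinase signalling, was the one past 2-fold, at 12.2 CPM in control and 34.1 CPM in the induced library (log2 ratio 1.48, 1.37 to 1.59). In basal cells it was nearly level (11.5 and 15.1 CPM), and in the outer root sheath it was at 13.4 and 57.0 CPM. In the upper follicle 4 of the list's 6 genes at 20 CPM were higher and none lower, against 6.49% and 10.5% of all genes. The 4 were Phlda1 (98.4 and 261.9 CPM), Ier3 (195.6 and 504.3 CPM), Dusp6 (72.9 and 124.9 CPM) and Dusp5 (21.3 and 35.8 CPM). Phlda1 was thus higher there and lower in the outer root sheath (337.2 and 159.4 CPM). Dusp4, under the level for a call, was at 23.5 and 9.30 CPM. The genes of these lists short of 2-fold over all epithelial cells are named after their values were seen. The stress sum in the upper follicle was 8093 and 9414 CPM, and 1 of its 16 genes was called higher. The cause of the differences in this list was not tested. Among the control lists in all epithelial cells, 13 of 13 G2/M genes and 3 of 16 stress genes (Fosb, Atf3 and Nr4a1) were lower, with Ccnb1 (58.6 and 20.6 CPM), Nusap1 (51.4 and 20.6 CPM), Kif11 (35.5 and 14.4 CPM) and Fosb (200.2 and 74.6 CPM) past 2-fold.

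Genes whose levels followed each member other than Areg most closely were named over 10 sums, 1 per class and library with at least 50 cells, which share libraries and depth. Levels were on the log2 scale with 5 CPM added. The values are the highest of a search over 4769 genes, where high r can arise from the search alone. The 3 highest Pearson r for Egfr were with Purb (0.92), Frmd6 (0.90) and Mob1a (0.90), and for Erbb3 with Mfsd6 (0.97), Cldn4 (0.97) and Spint1 (0.96). For Ereg they were Abca5, Smap2 and Tmem265 (0.98, 0.96 and 0.96), and for Hbegf Ckap4, Cdh1 and Clip4 (0.95, 0.94 and 0.93). Tgfa was followed by Atp1b1, Cmas and Slc40a1, Btc by Cdkn2b, Bace2 and Tbcd, Epgn by Carhsp1, Cln6 and Ets2, Errfi1 by Tead1, Sertad1 and Mcl1, and Erbb2 by Mycl, Dctn3 and Pgap1, at r between 0.90 and 0.98. Among the members themselves the closest pairs were Areg with Btc (r = 0.90), Erbb3 with Tgfa (0.86) and Areg with Hbegf (0.84), and the lowest r was between Egfr and Erbb3 (−0.41). These values describe the 10 sums and carry no test.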

How the data were processed

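Single cells of newborn mouse skin were profiled in 2 libraries, 1 per group. The authors deposited raw UMI counts for every gene in each barcode; Cell Ranger 6.0.0 and mm10 are named in the submitters' processing notes. Barcodes with at least 1000 UMIs, at least 500 genes and under 15% mitochondrial UMIs were kept (5178 and 5258). The 7% with the highest Scrublet doublet score were then removed per library, since the automatic threshold marked only 3 and 1. Clusters were found with scanpy 1.11.5 and leidenalg 0.10.2 (2000 variable genes, 30 components, 15 neighbours, resolution 1.0, then 2.0 within epithelial clusters), leaving out the 10 genes and all pathway, stress and cell cycle lists. Clusters with at least 3 raised markers of a list (1.5-fold, in 25% of cells) were named; low-depth epithelial clusters without a leading marker (40 and 301 cells) were set aside. UMIs were summed per class and library as CPM with exact Poisson 95% intervals; ratios have exact conditional binomial intervals (scipy 1.17.1). "Called" means past 1.5-fold with 5 CPM added, among genes averaging at least 20 CPM. The script was tested on simulated counts. Named were all 10 genes, list genes past 2-fold at 20 CPM, and the 3 genes of highest r per member (for Areg not reported here). Members, lists and rules were chosen with earlier results of these data known. Alternatives changed the cell filter, doublets, clustering, pseudocount, fold, scaling, gene filter and thinning.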

Additional observations from a re-analysis of the deposited data

Results flagged for a closer look

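Epgn differed in direction between epithelial classes under the same contrast. Its log2 ratio of induced to control was 1.41 in the outer root sheath and 1.25 in the upper follicle, against −0.99 in spinous cells, and the counting intervals of each pair do not overlap. The largest ratio was −3.82, in unnamed epithelial cells. Epgn averaged under 20 CPM in each of these classes and was outside the counts of called genes. With 5 CPM added the upper follicle and spinous log2 ratios were 0.56 and −0.35, each short of 1.5-fold. The difference between classes was not tested over animals, since each group has 1 library. The outer root sheath value rests on cluster E29, and the upper follicle value on E25 (2.30 CPM in control and 22.5 CPM in the induced library), while E21 had 2.66 and 1.18 CPM. In the upper follicle 51.9% of the 27 induced Epgn UMIs came from 1 cell, and in spinous cells 32.1% of the 28.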

How the results depend on the processing

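With 1 library per group no library could be left out. No paired analysis was possible because each group has 1 sample and no test was made. The 1 member called higher and the 1 called lower over all epithelial cells, and the 2 and 6 pathway genes, kept these counts within 1.5 times under the alternatives other than those named here. At 2-fold the members called were 0 and 0 and the pathway genes 1 and 1. Without the filter on low genes 2 members were called higher, Ereg being added, and 11 pathway genes lower. In the clusters of both libraries, an alternative added after seeing the data, 2 members were higher and 0 lower, and 4 pathway genes were higher and 3 lower. The 5 members with the same highest class became 8 with doublets kept and 3 with epithelial clustering at resolution 1.0. The 3 members whose shares did not overlap became 8 at 4000 UMIs, 9 without thinning and 5 with doublets kept. Members with a miR-200b match went from 3 to 1 at 8 bases. Of 50 log2 ratios of members by class, 15 were past 1.5-fold with 5 CPM added. These include members under 20 CPM, which were not called, such as Tgfa in basal and spinous cells. Of all genes at 20 CPM in the same sets, 6.39 to 7.65% were called higher and 10.3 to 13.2% lower. Of the 15 ratios, 13 kept their sign in every alternative run and 2 did not. The 2 were Btc in the upper follicle (−0.53 with library-centred clustering) and Epgn in the outer root sheath (−0.14 without clusters of high stress sum, an alternative added after seeing the data). The cause was not tested. Across the alternatives other than those added after seeing the data, the Egfr ratio with 5 CPM added ran from −1.53 to −1.23 in basal cells and from −1.03 to −0.77 in the outer root sheath, and the Erbb3 ratio from 0.72 to 0.91 and from 0.83 to 1.02; in the upper follicle the Egfr ratio ran from −0.34 to 0.59. Depth limits Ereg and Btc most, with 136 and 340 UMIs in all kept control cells.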

Other observations

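Some levels belong to no comparison because 1 library held too few cells. In 20 induced inner root sheath-like cells Tgfa was at 92.3 CPM (57 UMIs, 50.9% of them in 1 cell) and in 8 control cells it had 33 UMIs, 60.6% in 1 cell. In 17 induced Schwann-like cells Erbb3 was at 206.1 CPM and in 31 control cells at 135.1 CPM. Nrg4, a ligand of Erbb4, was at 5.18 CPM in control and 0.79 CPM in induced epithelial cells (399 and 77 UMIs), under the level at which genes were called. Dusp4, which dephosphorylates ERK, was at 7.79 and 1.84 CPM. Rhbdf1, which carries the sheddase Adam17 to the cell surface, was at 17.2 CPM in control and 42.4 CPM in induced upper follicle cells. Adam17 itself was at 31.0 and 20.6 CPM there.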
